A study of Mus musculus with 6 samples.

Results

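The 300 most abundant transcript entries of proliferating mouse embryonic fibroblasts were followed across 2 genotypes of Rb1. They are 300 of the 55419 entries of the count table, each a UCSC-style transcript ID. They were chosen by their mean CPM (the count divided by the library total, times 1000000) over the 3 Rb1+/+ libraries. An ID was left out where its CPM in both Rb1L/L replicates 2 and 3 lay under 0.25 of its lowest CPM in the other 4 libraries. That step removed 2 IDs from the top of the ranking, the first and the second of all. The levels in Rb1+/+ thus chose the members, and the values of both genotypes set which IDs were removed, so the levels and the differences between genotypes are given here as descriptions.

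Mouse embryonic fibroblasts (MEFs) are primary connective-tissue cells. Here they were made from E13.5 embryos, and all 6 cultures were dividing at passage 4 when RNA was taken. Rb1 encodes the retinoblastoma protein pRb, which restrains entry into the cell cycle by binding E2F transcription factors and recruiting chromatin regulators. There were 3 wild-type libraries (Rb1+/+) and 3 libraries homozygous for the allele labelled L (Rb1L/L), carried in the germline and so in every cell. In published work the L allele alters the pocket surface by which pRb binds proteins with an LXCXE motif, and the title of the series names condensin II and promoters to which pRb recruits it. Whether the 3 cultures of a genotype came from separate embryos is not stated in the labels, so p-values measure only how these libraries spread, and that spread may be technical. No batch is given in the labels.

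In fibroblasts the most abundant transcripts usually encode extracellular matrix proteins, the cytoskeleton and the translation machinery, and stable non-coding and mitochondrial RNAs add to them when total RNA is depleted of ribosomal RNA rather than selected for poly(A) tails. A few such transcripts take a large part of all reads, so their counts also set the scale on which every other transcript is measured. The table gives IDs without gene symbols, and 0 of the 300 members matched the reference tables. Members are therefore called by their abundance rank, from 1 to 300. Whether they include the known markers of fibroblasts or of other cells was not analysed here. No transcript length was at hand, so a higher rank reflects a longer transcript as well as a more abundant one.

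The members were measured deeply. Library totals ran from 14325677 to 20525072 counts, and each Rb1L/L library was shallower than each Rb1+/+ library. Apart from 1 member with libraries at 0, the lowest count of any member in any library was 1228, and the median was 12545.5. Counting error alone would give a median SD of 0.013 (Rb1+/+) and 0.014 (Rb1L/L) in log2 units. The observed median SD between replicates was 0.17 and 0.21 log2 units (n = 3 each, CPM scaled by the trimmed mean of M-values, TMM, which sets library sizes from IDs without extreme ratios). The median member thus varied 15.3 times as much as its counting error in Rb1+/+ and 16.8 times as much in Rb1L/L.

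Levels fell steeply at the head of the list. The mean in Rb1+/+ was 11016 CPM at rank 1, 4746 CPM at rank 10, 933 CPM at rank 100 and 397 CPM at rank 300, and 91 members lay above 1000 CPM. The edge of the list was arbitrary: the last member measured 397.1 CPM and the next ID, just outside, 397.0 CPM. Among the first 10 ranks, 1 of 9 neighbouring pairs had values that did not overlap in Rb1+/+, and over the whole list it was that pair alone. The order is therefore a coarse one.

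**Figure D1:**
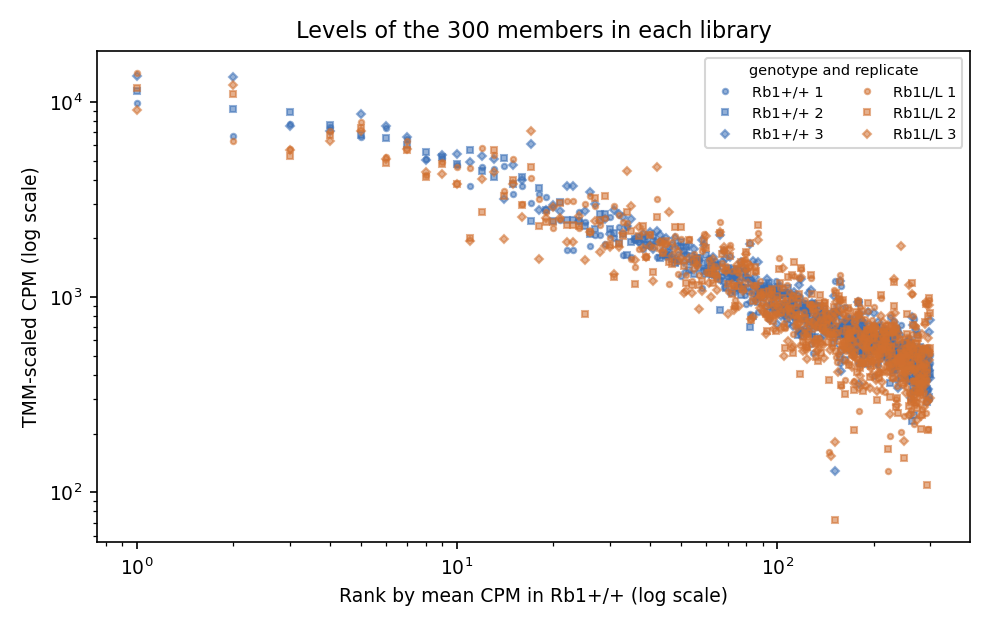
Level of each member (TMM-scaled CPM, vertical log axis) against its rank by mean CPM in Rb1+/+ (horizontal log axis), with 1 point per library, blue for Rb1+/+ and orange for Rb1L/L. Wild-type means before TMM scaling fall from 11016 CPM at rank 1 to 397 CPM at rank 300, most members keep close to that line in all 6 libraries, and a few points lie far below it. Values of 0 (3 libraries of 1 member) are not drawn.

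With TMM scaling, the 2 leading members had nearly the same mean in both genotypes. Rank 1 measured 9832, 11358 and 13607 TMM-scaled CPM in Rb1+/+ replicates 1, 2 and 3, and 14055, 11809 and 9118 in Rb1L/L replicates 1, 2 and 3. The highest and the lowest value both lay in Rb1L/L, and the means were 11599 ± 1899 and 11661 ± 2472 CPM (SD, n = 3 each). Rank 2 measured 6655, 9181 and 13488 CPM in the wild type and 6318, 10971 and 12158 CPM in Rb1L/L. It varied 2.13-fold over the libraries, while the genotype means lay close together (9775 ± 3455 and 9815 ± 3087 CPM, SD, n = 3 each). Of the first 10 members, 8 were also among the first 10 of the list by their mean in Rb1L/L, and 7 had a lower fitted level in Rb1L/L. Ranks 3, 6, 8, 9 and 10 had values in Rb1L/L below all values in the wild type, 5 of 10, where 17.6% of all IDs tested did not overlap in either direction. The rule ranked on wild-type levels, so nothing is read from this count.

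Most of the list recurred in the other genotype. Of the 300 members, 263, 258 and 256 were among the 300 IDs of highest CPM in Rb1L/L replicates 1, 2 and 3, which the rule did not rank by. In the Rb1+/+ libraries that chose them it was 283, 280 and 274. The median shift in rank was 11 to 14.5 places in the Rb1+/+ libraries and 25 to 31 places in the Rb1L/L libraries.

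Together the members took about 1 count in 3. Their share was 33.8%, 33.8% and 35.9% of all counts in Rb1+/+ replicates 1, 2 and 3, and 34.3%, 37.2% and 36.8% in Rb1L/L replicates 1, 2 and 3. Exact binomial 95% intervals spanned under 0.1 percentage points (33.8% to 33.9% in Rb1+/+ replicate 1). They cover counting error only, since PCR copies are not independent molecules. The 2 IDs left out at the top bear on this share, because they took 9.19% and 1.31% of the counts in Rb1+/+ replicate 1, similar parts in replicates 2 and 3 and in Rb1L/L replicate 1, but at most 0.452% and 0.0456% in Rb1L/L replicates 2 and 3. With both removed from the totals, the share was 37.8%, 38.0% and 40.2% in Rb1+/+ and 38.3%, 37.2% and 37.0% in Rb1L/L. The order of the genotype means reversed, from 34.5% ± 1.24 against 36.1% ± 1.58 to 38.7% ± 1.35 against 37.5% ± 0.715 (Rb1+/+ against Rb1L/L, SD, n = 3 each).

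Ranking by the mean CPM over all 6 libraries, with the same IDs removed, gave a list of 300 that shared 282 members with this one. It took 34.4% ± 1.38 in Rb1+/+ and 36.5% ± 1.66 in Rb1L/L of all counts, and 38.5% ± 1.51 and 37.9% ± 0.673 with the 2 top IDs removed from the totals (SD, n = 3 each). As the removal step looks at Rb1L/L values, these differences were not tested. With no ID removed, the 300 IDs of highest mean over all 6 libraries, 281 of them members, took 43.9%, 44.6% and 46.5% of the counts in Rb1+/+ and 45.1%, 37.7% and 37.6% in Rb1L/L. An exact 2-sided permutation test of that difference gave p = 0.3. No outcome could have passed the threshold used here, as 0.1 is the smallest p that 3 libraries against 3 allow. This list was also chosen after the data were seen, and it holds the 2 top IDs, which were low in Rb1L/L replicates 2 and 3. Nothing is therefore read from the test. Rb1L/L replicate 1 lay inside the range of Rb1+/+.

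Most members were steady. Over all 6 libraries, 122 members (40.7%) stayed within 1.5-fold and 232 (77.3%) within 2-fold, close to the next 700 IDs by the same rule (41.9% and 76.9%) and above all 22085 IDs tested (12.1% and 31.2%), most of which have far fewer counts. The most even member, singled out after its values were seen, was rank 56. It measured 1498, 1584 and 1483 CPM in the wild type and 1459.8, 1572 and 1457 CPM in Rb1L/L, a range of 1.09-fold. Its genotype means were 1521 ± 54.2 and 1496 ± 65.3 CPM (SD, n = 3 each). The SD of log2 CPM was larger in Rb1L/L for 168 members (56.0%), against 58.6% of all IDs tested.

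The libraries did not group cleanly by genotype over the members. The median absolute log2 difference between 2 libraries over the members was 0.15 between Rb1+/+ replicates 1 and 2. Rb1+/+ replicate 3 lay 0.23 and 0.22 from these, but 0.15 from Rb1L/L replicate 1 and 0.23 from Rb1L/L replicate 2. Its distance to Rb1L/L replicate 3 was 0.31 with TMM scaling and 0.21 with scaling by library size alone. Rb1+/+ replicates 1 and 2 lay 0.30 to 0.36 from the Rb1L/L libraries. Within Rb1L/L the distances were 0.17, 0.31 and 0.24 with TMM scaling, and all 3 were 0.21 to 0.22 by library size alone. So Rb1+/+ replicate 3 was nearer to Rb1L/L replicate 1 than to either library of its own genotype, under TMM, relative log expression and library-size scaling alike. This was not particular to the members. The next 700 IDs gave 0.16 against 0.23 and 0.22, and all IDs tested 0.44 against 0.47 and 0.46 (TMM).

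**Figure D2:**
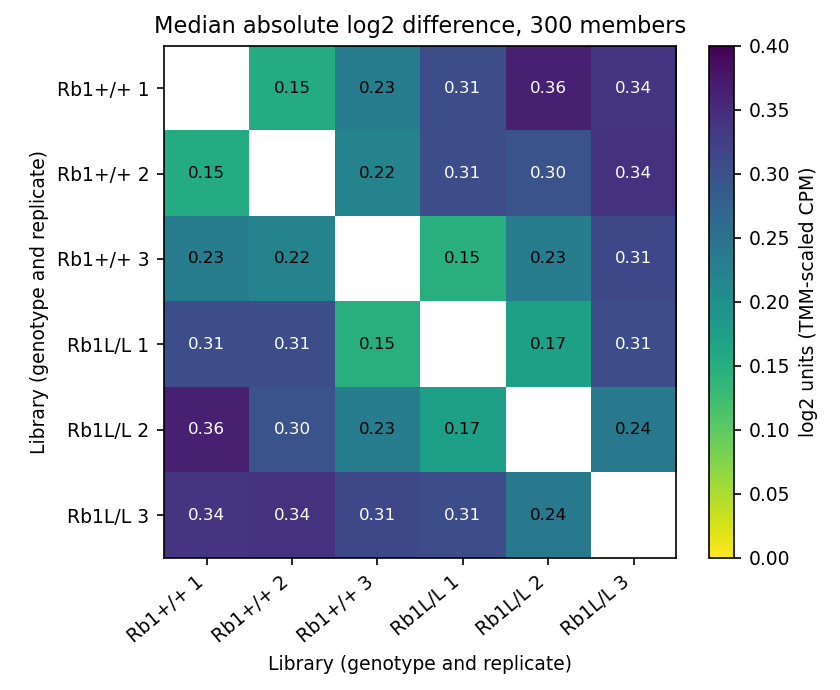
Median absolute log2 difference in TMM-scaled CPM over the 300 members for each pair of libraries (rows and columns, genotype and replicate), darker for larger differences. Rb1+/+ replicate 3 differs by 0.15 from Rb1L/L replicate 1 and by 0.23 and 0.22 from the other Rb1+/+ libraries.

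Counted member by member, Rb1+/+ replicate 3 lay closer to the mean of the 3 Rb1L/L libraries than to the mean of the other two Rb1+/+ libraries for 164 of the 300 members (54.7%). For Rb1+/+ replicates 1 and 2 the same count was 77 (25.7%) and 88 (29.3%). Taken the other way, Rb1L/L replicates 1, 2 and 3 lay closer to the Rb1+/+ mean for 134, 89 and 132 members. A mean of 3 libraries is steadier than a mean of the remaining pair, which raises all of these counts. Over all IDs tested the counts were less uneven within Rb1+/+, at 38.6%, 39.8% and 50.7% for replicates 1, 2 and 3. The next 700 IDs gave 26.4%, 30.9% and 56.1%, near the values of the members. What sets Rb1+/+ replicate 3 apart was not tested.

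Fitted differences between the genotypes were small. No member passed an adjusted p of 0.05 in the edgeR quasi-likelihood test, fitted on all 22085 IDs with Benjamini-Hochberg adjustment over all of them, where 0.00906% of all IDs passed. The lowest adjusted p of a member was 0.157. The median absolute log2 fold change of the members was 0.22, against 0.39 over all IDs tested and 0.24 for the next 700 IDs. A difference of 1 log2 unit or more was fitted for 6 members (2%), the same share as in the next 700 IDs (14, or 2%) and under the background of 17.1%. The median standard error was 0.17 log2 units for the members and 0.46 for all IDs.

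At an unadjusted p under 0.05 (edgeR) there were 61 members (20.3%), 15 higher and 46 lower in Rb1L/L, where the background over all IDs was 8.35%, with 4.09% higher and 4.26% lower. The next 700 IDs gave 16.6%. The number changed when single libraries were left out. It was 30 without Rb1+/+ replicate 1, 32 without Rb1+/+ replicate 2 and 35 without Rb1L/L replicate 2, against 55 to 77 without each of the others. The share over all IDs moved with it, to 5.01%, 5.597% and 6.57% without those 3 libraries and to 9.85%, 9.50% and 8.50% without Rb1+/+ replicate 3, Rb1L/L replicate 1 and Rb1L/L replicate 3. Values of the genotypes did not overlap for 89 members, 25 higher and 64 lower, against a background of 17.6% (7.77% higher and 9.83% lower). Because the rule ranked on Rb1+/+ levels, members with lower values in Rb1L/L were favoured, and nothing is read from these counts.

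The balance of directions moved with both the scaling and the choice of list. The median log2 fold change of the members was -0.09 with TMM scaling and 0.03 by library size alone, and that of all IDs -0.02 and 0.11. Relative to all IDs the members thus lay below by a like amount in both. By library size alone, the 15 higher and 46 lower members at an unadjusted p under 0.05 became 33 higher and 22 lower, and over all IDs 903 higher and 940 lower became 1311 higher and 530 lower. Ranking by the mean of all 6 libraries gave a median of -0.04 (20 higher and 35 lower), and ranking by the Rb1L/L libraries gave -0.0043 (21 higher and 28 lower).

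Other tools differed in how many members they called. DESeq2 called 26 members at an adjusted p under 0.05, 5 higher and 21 lower. It called 3.83% of the 21005 IDs that it gave an adjusted p (1.83% higher and 2% lower). Of the 22085 IDs tested by edgeR it called 3.06%. At an unadjusted p under 0.05 it gave 83 members, against 9.4% of the 33140 IDs that it gave a p. limma-voom called 0 members and 0% of all IDs, with 78 members at an unadjusted p under 0.05 against 9.64% of all IDs.

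**Figure D3:**
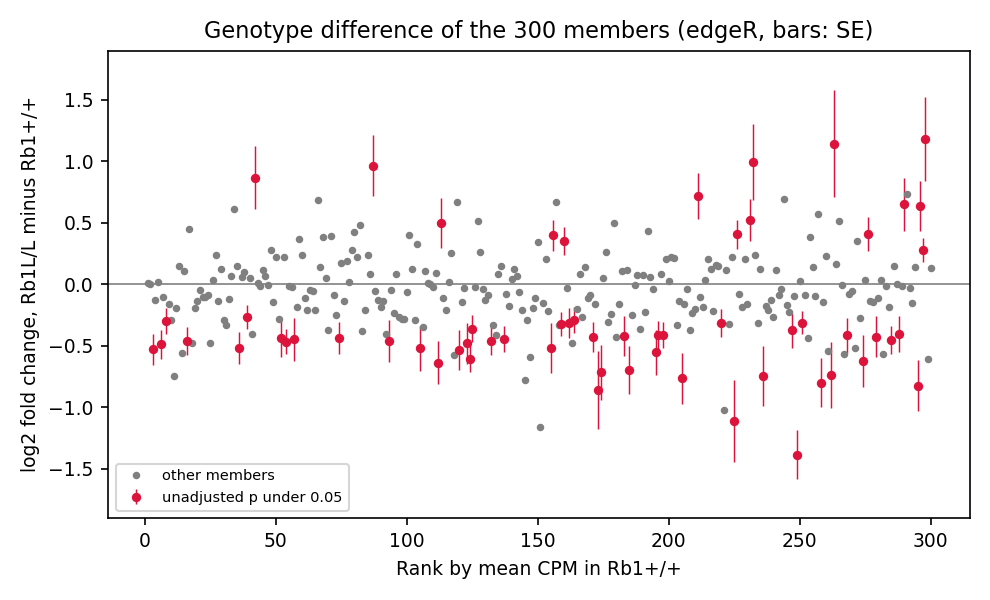
edgeR log2 fold change (Rb1L/L minus Rb1+/+, vertical axis) of each member against its abundance rank (horizontal axis), red with standard errors for the 61 members with an unadjusted p under 0.05 and grey for the rest. Most members lie close to 0, more of the red ones lie below 0 than above (46 against 15), and the 6 beyond 1 log2 unit all come after the first 150 ranks.

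The members with the smallest unadjusted p and no overlap were examined in each direction, 5 higher and 5 lower in Rb1L/L. None of these 10 passed the adjusted threshold in edgeR. Among the higher ones, rank 87 (uc007bvp.1) measured 838, 943 and 1509 CPM in the wild type and 2121, 2347 and 1960.2 CPM in Rb1L/L. Its means were 1097 ± 361 and 2143 ± 194 CPM (SD, n = 3 each), and the fitted log2 difference was 0.97 with SE 0.25 (adjusted p = 0.44 by edgeR). Rank 298 measured 299.1, 307 and 661 CPM in the wild type and 967, 992 and 916 CPM in Rb1L/L, and the fitted log2 difference was 1.18 with SE 0.34 (adjusted p = 0.487 by edgeR). In both, Rb1+/+ replicate 3 stood highest of its genotype and nearest to the Rb1L/L libraries.

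The same order held for rank 211 (uc007iua.1), with 486, 522 and 700.5 CPM in the wild type against 995, 1019.6 and 799 CPM in Rb1L/L (log2 fold change 0.72 ± 0.19, SE, edgeR adjusted p = 0.441). Rank 42 measured 1614, 1913 and 2188 CPM in the wild type and 3198, 2564 and 4655 CPM in Rb1L/L, with a wide spread in the second group (SD 1072 CPM). Rank 226 was the exception among the 5: it measured 530.0, 576 and 529 CPM in the wild type and 652, 709 and 808 CPM in Rb1L/L, and Rb1+/+ replicate 3 was its lowest library. Its log2 fold change was 0.41 ± 0.12 (SE, edgeR adjusted p = 0.487).

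Among the lower members, rank 249 (uc007zig.1) measured 509, 489 and 522 CPM in the wild type and 247, 150.3 and 183 CPM in Rb1L/L. Its means were 507 ± 16.4 and 194 ± 49.5 CPM (SD, n = 3 each), and the fitted log2 difference was -1.39 with SE 0.20 (adjusted p = 0.157 by edgeR), the smallest p of all members. The ID before it in serial order, not a member, measured 59.2 and 57.2 CPM in Rb1+/+ replicates 1 and 2, but 512 CPM in replicate 3 and 298, 307 and 317 CPM in Rb1L/L. Summed over both IDs, the values were 568, 547 and 1035 CPM in the wild type and 546, 457 and 499.9 CPM in Rb1L/L, with means of 716 ± 276 and 501 ± 44.4 CPM (SD, n = 3 each). The highest Rb1L/L value of the sum lay just under the lowest Rb1+/+ value, and the high mean of Rb1+/+ rested on replicate 3.

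Rank 124 (uc009qng.1) measured 818, 848 and 763 CPM in the wild type and 558, 557 and 482 CPM in Rb1L/L, and the fitted log2 difference was -0.60 with SE 0.11 (adjusted p = 0.24 by edgeR). Rank 54 measured 1565, 1616 and 1534 CPM against 1207, 1149.9 and 1053 CPM, and the fitted log2 difference was -0.47 with SE 0.10 (adjusted p = 0.344 by edgeR).

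Ranks 3 and 6 carried the same direction among the most abundant members. Rank 3 measured 7740.2, 8864 and 7504 CPM in the wild type and 5768, 5277 and 5645 CPM in Rb1L/L (8036 ± 727 and 5563 ± 256 CPM, SD, n = 3 each). Rank 6 measured 7319.7, 6524 and 7512 CPM against 5246, 4886 and 5087 CPM (7118 ± 524 and 5073 ± 181 CPM, SD, n = 3 each). Their log2 fold changes were -0.53 ± 0.12 and -0.49 ± 0.12 (SE, edgeR adjusted p = 0.399 for each). Each has another member beside it in serial order with a lower fitted level in Rb1L/L too, rank 125 at -0.36 ± 0.11 (SE) and rank 14 at -0.56 ± 0.29 (SE). Rank 211, higher in Rb1L/L, likewise stands beside a member with a higher fitted level there, rank 297 at 0.28 ± 0.10 (SE). DESeq2 called 9 of the 10 members named here, all but rank 42. The 10 were picked by p from the same counts, so this is no separate support.

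**Figure D4:**
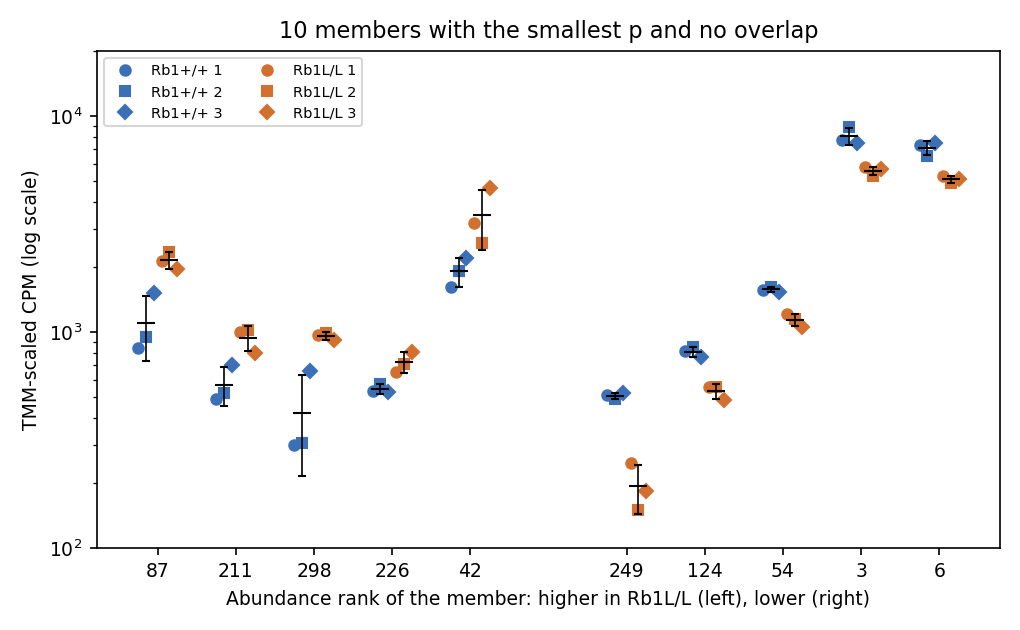
TMM-scaled CPM (vertical log axis) of the 10 members with the smallest unadjusted p and no overlap between genotypes, named by abundance rank on the horizontal axis, 5 higher in Rb1L/L on the left and 5 lower on the right. Points are libraries, black marks are means with SD (n = 3). In ranks 87, 211, 298 and 42 the third Rb1+/+ library is the Rb1+/+ point nearest to Rb1L/L.

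A few members varied widely. For 9 members (3%) the highest of the 6 values was more than 4 times the lowest, against 6.14% of the next 700 IDs and 40.4% of all IDs tested, and none of the 9 was among the first 100. For the clearest of them, the ID next in serial order varied largely the opposite way. Serial order is the order of the ID codes themselves, and whether neighbours belong to 1 gene was not tested.

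The last member but one was either present or at 0. It measured 503, 762 and 831 CPM in replicates 1 and 3 of Rb1+/+ and replicate 2 of Rb1L/L, and had 0 counts elsewhere. A count of 0 (3 counts taken as the upper limit) allows at most 0.209 CPM, before TMM scaling, in the shallowest of these libraries. The ID just before it showed the mirror image, with 0 counts in the 3 libraries where that member was present and 528, 1027 and 508 CPM in the 3 where it was absent. Their sum ran from 503 to 1027 CPM, a 2.04-fold range, with genotype means (± SD, n = 3) of 598 ± 143 CPM for Rb1+/+ and 789 ± 262 CPM for Rb1L/L. The alternation crossed the genotypes, with 2 of 3 libraries in Rb1+/+ and 1 of 3 in Rb1L/L on the side of the member.

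Rank 151 and the member before it, rank 82, formed another such pair. Rank 151 measured 1204, 843 and 129 CPM in the wild type and 719, 72.1 and 182 CPM in Rb1L/L, a 16.7-fold range. Rank 82 measured 824, 707 and 1876 CPM in the wild type and 1444.5, 1886 and 1438 CPM in Rb1L/L. It was high where rank 151 was low, but also in Rb1L/L replicate 1, where rank 151 measured 719 CPM. The sum of both ran from 1549.7 to 2164 CPM, a 1.40-fold range, with means of 1861 ± 269 and 1914 ± 275 CPM (SD, n = 3 each). These means differed by less than the spread between replicates, although rank 151 alone had a fitted log2 difference of -1.16 with SE 1.08 (adjusted p = 0.839 by edgeR).

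**Figure D5:**
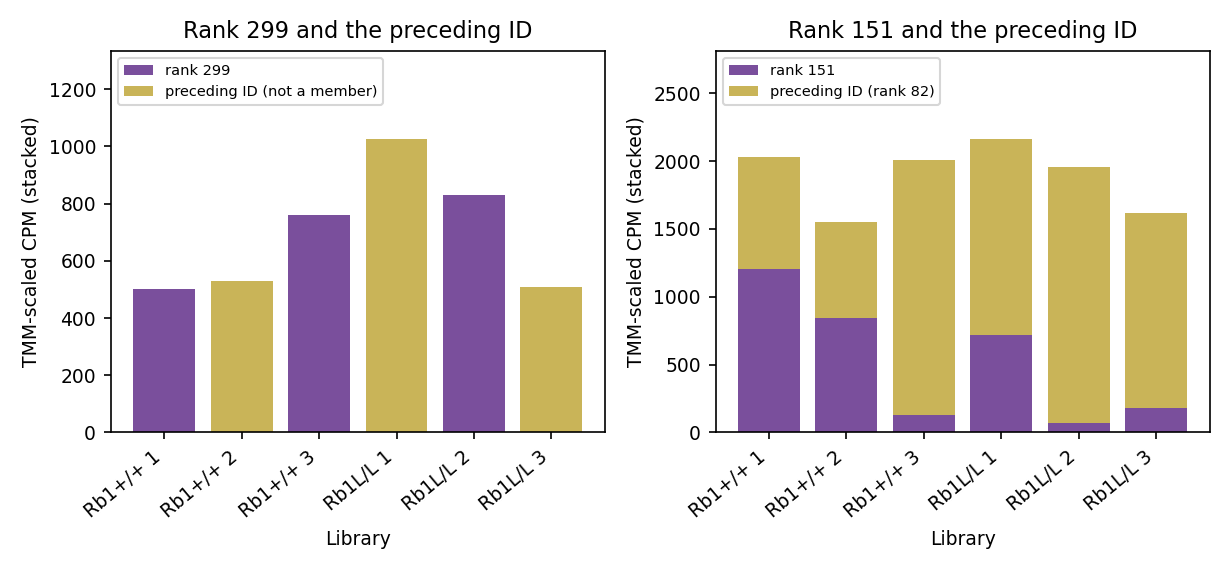
Stacked TMM-scaled CPM (vertical axis) in each library (horizontal axis) of the last member but one and the ID before it in serial order (left) and of rank 151 and the ID before it, rank 82 (right). On the left each library shows 1 of the 2 IDs only, with totals of 503 to 1027 CPM; on the right the parts change while the total stays within 1.40-fold.

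In the other wide members no neighbour made up for the variation to this extent. For rank 221 the ID before it was higher in the 2 libraries where rank 221 was low (104.5 and 72.4 CPM against 5.49 to 8.86 CPM elsewhere), and the sum still varied 2.78-fold. Rank 244 reached 1825 CPM in Rb1L/L replicate 3 and lay at 204 to 719 CPM in the other 5 libraries, and its next ID in either direction had almost no counts. Rank 294 measured 538, 289 and 440 CPM (Rb1+/+) and 377, 109 and 911 CPM (Rb1L/L), with both extremes in Rb1L/L. Rank 145 was even in Rb1+/+ (736, 768 and 739 CPM) and uneven in Rb1L/L (161, 376 and 772 CPM), and rank 147 stood low in Rb1L/L replicate 3 alone (153 CPM against 661 to 799 CPM elsewhere). Rank 221 was low in Rb1L/L replicates 1 and 2 (128 and 167 CPM) and at 510.3 to 639 CPM in the remaining libraries. Rank 263, with 449, 232 and 790 CPM in the wild type and 1036, 1177 and 1040.5 CPM in Rb1L/L, had values without overlap (edgeR adjusted p = 0.575). So did rank 225, which lay at 363 to 790 CPM in Rb1+/+ and 195 to 309 CPM in Rb1L/L (edgeR adjusted p = 0.503). Rank 267, the ID before rank 225 in serial order, was likewise highest in Rb1+/+ replicate 1 (774 CPM) and lowest in Rb1L/L replicate 1 (224 CPM). Departures of a single library by more than 1.5-fold from the 5 others were few, with 8 members for Rb1L/L replicate 3 and 0 to 4 for each of the other libraries. Rb1L/L replicate 3 also led among the next 700 IDs (28, against 3 to 17). Among all 22085 IDs tested it had 2650, against 1329 to 2348 for each of the others.

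Members often stood beside one another in serial order. There were 22 consecutive pairs that held 38 members (12.7%), against 7.86% of the next 700 IDs with a neighbour in that class. In 15 of the 22 pairs both fitted log2 fold changes had the same sign. As 61.7% of all members had a lower fitted level in Rb1L/L, many pairs share a sign in any case. The share among members apart in serial order is not given here, so nothing is read from this count. The 38 members fell into 14 runs of 2, 1 run of 3 and 1 run of 7 IDs, and pairs within a run share IDs. Counts of ranks 22 and 23, which are not neighbours in serial order, differed by at most 1 count in any library, so this pair is close to 1 entry listed under 2 IDs. No other member lay within 5% of another ID in all 6 libraries.

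The run of 7 held rank 1 and 6 other members (ranks 11, 31, 26, 23, 58 and 33, of which rank 23 is the near copy of rank 22) and began right after 1 of the 2 IDs left out at the top. That left-out ID measured 13362, 16341 and 17052 CPM in Rb1+/+, 16339.5 CPM in Rb1L/L replicate 1, and 77.2 and 414 CPM in Rb1L/L replicates 2 and 3. The next ID, rank 11, was also low in those 2 libraries, at 2013 and 1936 CPM against 3730.2 to 5689 CPM in the other 4. So was the following one, rank 31, at 1265 and 1320.2 CPM against 2002 to 2930 CPM (2929.5 CPM in Rb1L/L replicate 1). The remaining 5 IDs of the run did not share this pattern. Rank 26, for example, measured 1832, 2110.3 and 3469 CPM in the wild type and 3282, 2150.5 and 2147 CPM in Rb1L/L, so that its 2 low Rb1L/L libraries lay inside the range of Rb1+/+. Ranks 11 and 31 had log2 fold changes of -0.75 ± 0.39 and -0.33 ± 0.37 (SE, edgeR adjusted p = 0.691 and 0.873). These folds rested on Rb1L/L replicates 2 and 3, as Rb1L/L replicate 1 lay within the Rb1+/+ range at rank 11 and just above it at rank 31. A difference in preparation or processing between libraries was not tested.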

How the data were processed

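Per the labels' protocols, libraries were made with a ScriptSeq kit from total RNA without rRNA. The deposited values are counts, whole numbers per UCSC-style transcript ID and library, not normalized. The build mm9 and the tools STAR 2.5.0a, DESeq2 and StringTie 1.3.2 stand in the submitters' processing notes, with no roles. The sources used here do not give the counting rules, the strand setting or filters, so values of transcripts that overlap or nearly share a sequence are uncertain. The reference in hand was of another build and matched 0 IDs; no coordinates, names or sequences were used.

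Groups came from sample titles. IDs were kept by edgeR's filterByExpr (about 10 counts in 3 libraries, 15 in total; 22085 IDs, all 300 members), and scaled by TMM. The genotypes were tested with edgeR 4.0.16 (quasi-likelihood F test, 2-sided, R 4.3.3) and Benjamini-Hochberg adjustment over all IDs (threshold 0.05). SE is the size of the log2 fold change over the root of F. Log2 CPM used a prior count of 2. DESeq2 1.42.0 (filter set for 0.05) and limma-voom (limma 3.58.1) were alternatives, beside other scalings, filters, lists and left-out libraries. The 10 named members were the 5 per direction with the smallest unadjusted p and no overlap, called by rank, with the IDs of the first 2 per direction printed. Members and lists were chosen with earlier results of these data known. The series' design mentions MEF pairs but ties no replicate number to a pair, so none was used in the fit.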

Additional observations from a re-analysis of the deposited data

How the results depend on the processing

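The count of 0 members at an adjusted p under 0.05 (edgeR) stayed 0 under each scaling, without a filter, without the IDs left out by the rule, with limma-voom, for the lists ranked by all 6 or by the Rb1L/L libraries, and without any 1 library. It was 26 with DESeq2 and 1 for the 1000 most abundant IDs, where more IDs were counted. The 61 members at an unadjusted p under 0.05 became 13 of the first 100 and 177 of the first 1000, and 30 to 77 without 1 library, the lowest without Rb1+/+ replicate 1, as the share of all IDs went from 8.35% to between 5.01% and 9.85%. The median log2 fold change of -0.092 moved to 0.029 by library size alone, to -0.039 for the list by all 6 libraries and to -0.0043 for the list by Rb1L/L, and ran from -0.11 to -0.048 without 1 library. The difference in the share of counts, 1.55 percentage points higher in Rb1L/L, became -1.23 when all IDs that meet the rule's removal criterion left the totals and -1.16 when only the 2 at the top did, because these take counts from 4 libraries. Without 1 library it ran from 1.01 to 2.46. With no ID removed, the list by all 6 libraries gave -4.86. The settings that remove only the 2 top IDs, remove no ID or leave out the last member but one (61 members at an unadjusted p under 0.05) were chosen after seeing the data. The 10 named members kept their direction in all 14 alternatives, and 9 of them passed the adjusted threshold in DESeq2. None passed in the others, where the lowest adjusted p was 0.0964 by edgeR (rank 249 without Rb1L/L replicate 1). The 10 were picked from these same counts for a small p and no overlap. That choice largely set both outcomes, so nothing is read from them.

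With the replicate number as a block, 0 members passed the adjusted threshold and 60 had an unadjusted p under 0.05 (10 higher, 50 lower), against 7.13% of all IDs, with a median log2 fold change of -0.095. Same-numbered libraries did not deviate together over all IDs (r = 0.013, -0.028 and 0.0011). Over the members alone the same-numbered r was -0.47, -0.80 and -0.47, and libraries of other numbers ran from -0.49 to 0.68. Every one of these r values has the sign that the last member but one gives by itself, being either present or at 0. Values of r without that member are not given here, so nothing is read from those over the members. No pairing was assumed. Transcript lengths, gene names and the marker lists were not used, since no ID matched a name.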
